A study of Homo sapiens with 12 samples.

Results

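The genes described here are 10 negative regulators of mitogen-activated protein kinase (MAPK) signalling, out of 19974 protein-coding genes in the series' genome. They are the dual-specificity phosphatases DUSP1, DUSP4, DUSP5, DUSP6 and DUSP10, the Sprouty genes SPRY1, SPRY2 and SPRY4, and the Sprouty-related genes SPRED1 and SPRED2. They were examined as potential binding targets of the nuclear receptor PPARγ. For each gene, all ChIP-seq peaks (regions enriched for immunoprecipitated DNA) were taken whose summit lay within 50 kb of the gene span in hg38. The pooled lists held 4 such peaks of 2846 for the KQ mutant of PPARγ and 52 of 25164 for wild-type (WT) PPARγ. A pooled peak is called reproducible when it overlapped, by 1 bp or more, a peak in both single-library lists of its group. The genes were chosen by the positions of these same peaks, so the counts and fold values below are descriptions without a test.

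The cells were MCF10A-NeuT, a human mammary epithelial line transformed with NeuT, an activated form of the rat ERBB2 receptor that feeds into MAPK signalling. Cells of the KQ group stably expressed PPARg K154/155Q, in which a pair of neighbouring lysines is replaced by glutamine, and cells of the WT group stably expressed unmutated PPARg. Both came from retroviral infection with a vector that also expresses GFP, both carried NeuT, and the labels name no removal of the cells' own PPARG gene in either. There were 2 ChIP libraries per group. The series holds 12 libraries in 6 groups; the vector-control ChIP and the input libraries were not analysed here. The antibody label and the protocol name an antibody to PPARγ, whereas the series' design text names one to Flag, and which of them was used was not settled. Peak lists hold no expression values, so the cell type label could not be checked against marker genes.

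MAPK cascades pass growth factor and stress signals to the nucleus through the kinases ERK, JNK and p38, which are switched on by phosphorylation of a threonine and a tyrosine. DUSP phosphatases remove both phosphates. Sprouty proteins act further up, between receptor tyrosine kinases and RAF, and SPRED proteins bind neurofibromin and bring it to the membrane, where it lowers active RAS. Many of these genes are themselves induced by ERK activity and so form negative feedback loops.

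Peaks at the starts of these genes were found with WT PPARγ, and their DNA is shown first. In the pooled WT list, 7 of the 10 genes had a peak summit up to 1 kb outside one end of the gene span, compared with 6.71% of all protein-coding genes. In the pooled KQ list 0 of 10 had one, compared with 0.756% of all genes. The WT summits at gene ends numbered 8 of 52 (15.4%), against 5.06% of the whole pooled WT list. The 52 were taken within 50 kb of these genes, whereas the whole list holds peaks at any distance from a gene. These shares are therefore not a like comparison. At any distance, 131 pooled WT peaks had these genes as their nearest gene, and the share of those at gene ends was not computed. Of the 8 WT summits at gene ends, 6 lay on the upstream side, at DUSP1, DUSP6, DUSP10, SPRY2, SPRY4 and SPRED2. Of the 8, 1 was reproducible, the peak at DUSP1. By fold the 6 upstream peaks stood low in the pooled WT list, above 4.92% of its peaks at SPRED2 to 25.1% at SPRY4. Those at SPRY2 and SPRY4 were found in neither WT library alone. The peaks at the other end of the gene stood above 59.3% at DUSP5 and 3.36% at DUSP6.

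The RefSeq promoter table for GRCh38.p14, the assembly of hg38, had entries for 8 of the 10 genes. Pooled WT summits fell within the 250 bases before the start for 4 of them. Those windows are printed 5′ to 3′ on the gene strand, which is the minus strand for all 4, with the bases inside the pooled WT peak in capitals. They lie at chr5:172771196-172771445 for DUSP1, chr12:89352502-89352751 for DUSP6, chr13:80341127-80341376 for SPRY2 and chr2:65432600-65432849 for SPRED2.
DUSP1: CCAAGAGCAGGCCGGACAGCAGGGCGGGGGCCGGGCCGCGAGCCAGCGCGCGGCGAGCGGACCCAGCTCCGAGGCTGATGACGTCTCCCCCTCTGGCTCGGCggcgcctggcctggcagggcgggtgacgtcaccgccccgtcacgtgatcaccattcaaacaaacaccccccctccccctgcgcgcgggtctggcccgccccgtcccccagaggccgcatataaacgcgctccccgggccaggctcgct
DUSP6: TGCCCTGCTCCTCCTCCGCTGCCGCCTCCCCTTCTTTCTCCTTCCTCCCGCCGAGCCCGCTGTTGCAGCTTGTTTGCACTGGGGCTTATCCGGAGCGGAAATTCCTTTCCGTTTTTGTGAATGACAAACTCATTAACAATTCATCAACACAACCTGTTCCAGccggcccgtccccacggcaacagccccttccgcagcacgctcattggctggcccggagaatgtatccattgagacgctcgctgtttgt
SPRY2: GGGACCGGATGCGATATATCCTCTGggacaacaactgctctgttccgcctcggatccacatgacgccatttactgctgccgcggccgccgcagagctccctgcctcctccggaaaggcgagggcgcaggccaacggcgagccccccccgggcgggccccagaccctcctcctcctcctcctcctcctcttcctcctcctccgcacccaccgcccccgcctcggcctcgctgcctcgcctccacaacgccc
SPRED2: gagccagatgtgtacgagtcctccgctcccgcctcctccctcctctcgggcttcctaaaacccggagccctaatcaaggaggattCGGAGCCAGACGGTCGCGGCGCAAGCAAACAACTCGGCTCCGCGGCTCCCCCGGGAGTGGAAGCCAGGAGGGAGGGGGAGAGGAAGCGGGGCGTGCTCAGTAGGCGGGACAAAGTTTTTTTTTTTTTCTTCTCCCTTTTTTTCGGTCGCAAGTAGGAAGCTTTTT
The summit lay 244 bases before the start at DUSP1, 198 at DUSP6, 247 at SPRY2 and 32 at SPRED2. The 250 bases were 74.4% G or C at DUSP1, 57.2% at DUSP6, 70.4% at SPRY2 and 58.8% at SPRED2, against a median of 58.4% over 34961 promoter entries.

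Motif letters were searched on both strands in the 250 bases before the start, for the 13 entries of these genes and for all 34961 entries. These windows hold 102 bases of the DUSP1 peak, 162 of the DUSP6 peak, 25 of the SPRY2 peak and 165 of the SPRED2 peak, and the rest of each peak was not searched. The nuclear receptor half-site AGGTCA matched in 1 of the 13 entries, an inner promoter of DUSP10 that is not printed, and in 12.0% of all entries. The direct repeat bound by PPAR with its partner RXR (DR1), 2 copies of AGGTCA in 1 direction with 1 base between them, matched in 0 of the 13 entries of these genes and in 0.0172% of all entries. A looser form, in which each copy may read AGGNCA, matched in 0 of 13 and in 0.269% of all entries. The searches overlap, since every full direct repeat also holds the half-site. At DUSP1 the cyclic AMP response element TGACGTCA matched once, beginning 125 bases before the start and outside the capitals. It was looked for after the sequence had been seen, and it matched in 1.65% of all entries.

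Near the 10 genes, KQ gave far fewer peaks than WT. In the libraries the counts were 1 and 1 for KQ (libraries 1 and 2) and 33 and 29 for WT, so the groups did not overlap. The whole lists differed in the same direction, with 1263 and 1035 peaks in the KQ libraries and 18143 and 17859 in the WT libraries. As a share of each pooled list, the peaks near these genes were 0.141% for KQ and 0.207% for WT. When the WT list was shortened to the KQ length of 2846 by the authors' q-value, 5 WT peaks were left near these genes, or 0.176% of it. Of these 5, 4 lay near DUSP1 and 1 near DUSP10.

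**Figure D1:**
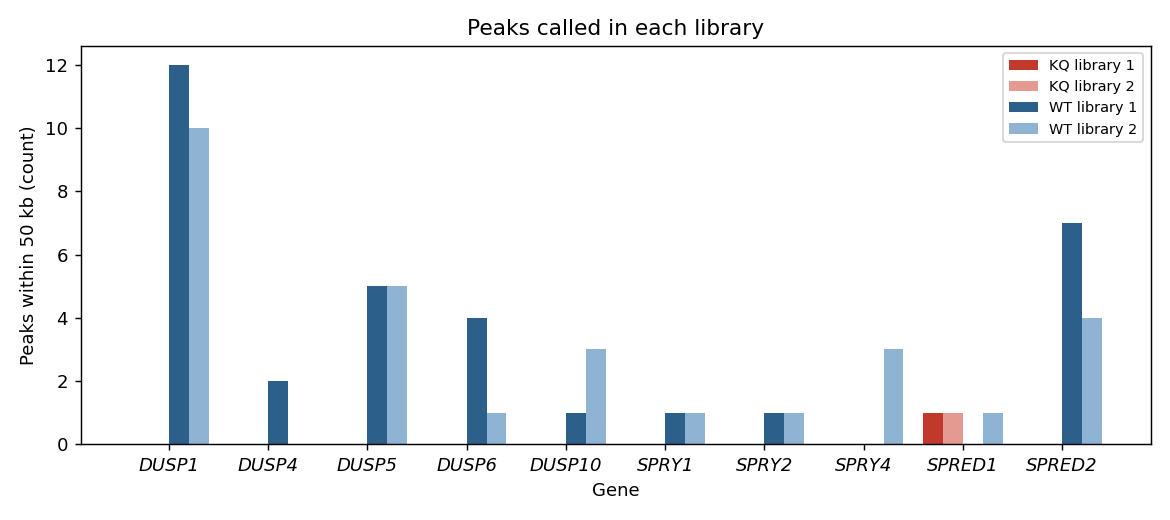
Peaks within 50 kb of each gene (vertical axis, count) in each ChIP library, with KQ libraries in red and WT libraries in blue. DUSP1 had 0 peaks in each KQ library against 12 and 10 in the WT libraries, and SPRED1 was the gene with a peak in both KQ libraries.

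By gene, 1 of 10 had a reproducible peak with KQ, against a background of 2.68% of protein-coding genes, and 5 of 10 with WT, against a background of 37.7%. The gene with KQ was SPRED1, and those with WT were DUSP1, DUSP5, DUSP10, SPRY1 and SPRED2. In the pooled lists, 3 of 10 genes had a peak with KQ (background 16.4%) and 10 of 10 with WT (background 67.1%). The WT count of genes moved with the library required: it was 6 when the pooled peak had to be found in library 2, whatever library 1 held, against a background of 48.6%, and 8 when it had to be found in library 1, against 54.8%. The KQ count was 1 for library 2 (background 5.79%) and 1 for library 1 (background 7.01%).

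**Figure D2:**
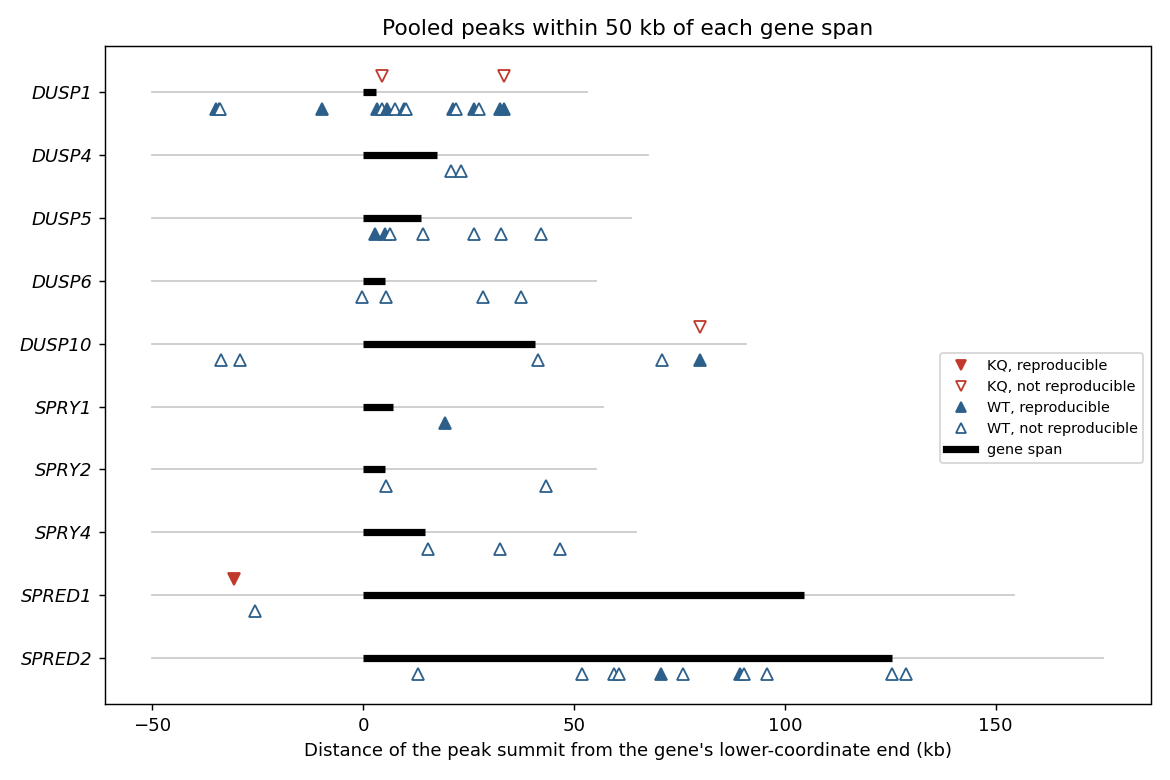
Position of every pooled peak summit relative to the lower-coordinate end of each gene (horizontal axis, kb). Red triangles above each line are KQ peaks, blue triangles below it are WT peaks, filled triangles are reproducible and black bars are gene spans. The 4 KQ peaks lay near DUSP1, DUSP10 and SPRED1, and 16 of the 52 WT peaks lay near DUSP1.

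Not all WT peaks were seen in each library. Of the 52 pooled WT peaks, 15 (28.8%) were reproducible, against 31.9% of the whole pooled WT list. A further 16 were found in library 1 and not in library 2, 6 in library 2 and not in library 1, and 15 in neither library. The authors' fold and p recover whole tag numbers (sequenced fragments at the summit) for all peaks of all lists. The median peak of the KQ libraries rested on 17 and 16 tags over a background of 2.01 and 1.77 tags. The median peak of the WT libraries rested on 15 and 8 tags over a background of 1.41 and 0.448. WT library 2 was thus the one whose peaks rested on the fewest tags.

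DUSP1 carried most of the reproducible WT sites of the group. DUSP1 (chr5:172768096-172771195, minus strand) encodes a nuclear phosphatase of p38, JNK and ERK that is induced early by stress and growth factors. It had 2 pooled KQ peaks, 0 of them reproducible, and 16 pooled WT peaks, 9 of them reproducible. The 9 made up 60% of the 15 reproducible WT peaks of the 10 genes. Among all protein-coding genes, 28 (0.140%) had as many as 16 pooled WT peaks within 50 kb, and 11 (0.0551%) had as many as 9 reproducible ones. Its window is 103.1 kb long and held 15.5 pooled WT peaks per 100 kb, the highest density of the 10 genes.

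Of the 16 WT peaks at DUSP1, 12 lay upstream and 4 downstream, and 0 lay inside the gene. The highest was 18.2 kb upstream (chr5:172789235-172789462), with fold 12.8, and folds of 9.81 in WT library 1 and 9.99 in WT library 2. It rested on 26 tags over a background of 1.75 in library 1 and on 15 tags over 0.602 in library 2. The next was 30.3 kb upstream (chr5:172801345-172801687), with fold 9.67, and folds of 8.79 in WT library 1 and 7.01 in WT library 2. With 66 tags (95% interval 51.0 to 84.0, exact Poisson, counting error only) it held the most tags of any peak near the 10 genes. Both libraries placed a peak at each of these sites, and the order of the 2 sites by fold was the same in both.

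Closer to the gene, a peak 2.48 kb upstream (chr5:172773566-172773784) had fold 9.49, with 6.89 in WT library 1 and 11.3 in WT library 2. A peak 23.1 kb upstream (chr5:172794017-172794455) had fold 8.98, with 5.99 in WT library 1 and 11.3 in WT library 2. At these 2 sites the fold was higher in library 2 than in library 1, whereas the tags were not. Each rested on 26 tags in library 1, over backgrounds of 2.92 and 3.50, and on 23 tags in library 2, over 1.12. The peak at the start, whose bases are printed above, was low in both libraries, with fold 4.13 in WT library 1, 4.28 in WT library 2 and 4.44 in the pooled list. The 5 pooled WT summits from 1.30 to 7.13 kb upstream lay inside the lncRNA gene LOC105377730. The authors' folds at DUSP1 ran from 4.04 to 12.8, with a median of 5.56.

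**Figure D3:**
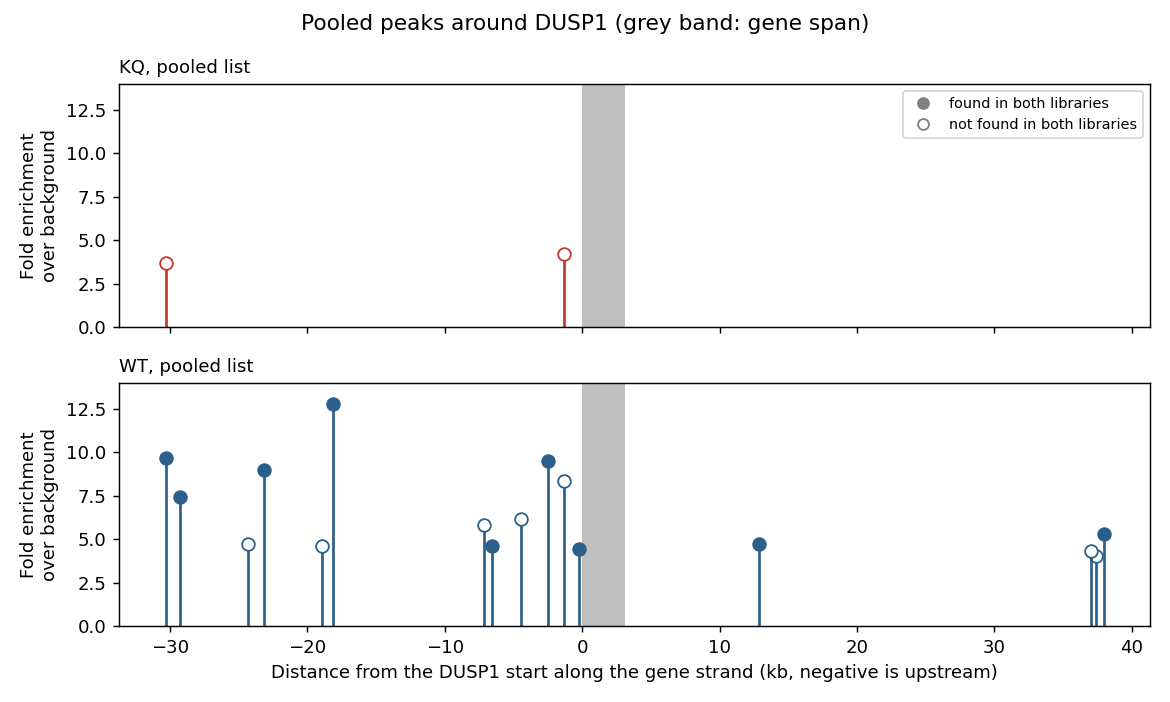
Fold enrichment over the caller's background (vertical axis) of each pooled peak around DUSP1 against its distance from the gene start (horizontal axis, kb), for KQ above and WT below. Filled points were found in both libraries. The KQ list had 2 peaks, at folds 4.20 and 3.69, on positions that also carried a WT peak.

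The KQ peaks at DUSP1 lay on WT sites. The first, 1.32 kb upstream (chr5:172772398-172772603), had fold 4.20 with KQ and 8.33 with WT. It rested on 32 tags over a background of 6.86 with KQ (95% interval 21.9 to 45.2) and on 25 tags over 2.12 with WT (16.2 to 36.9). The second, 30.3 kb upstream, had fold 3.69 with KQ and 9.67 with WT. It rested on 28 tags over a background of 6.86 with KQ (18.6 to 40.5) and on 66 over 5.93 with WT. The KQ summits lay 16 and 11 bases from the WT summits. At the first site the tag intervals of both groups overlapped and the background was higher with KQ, and tag numbers are not scaled between groups. Neither site had a peak in either KQ library on its own, so the KQ sites at DUSP1 were called in the pooled list alone. The WT peak at the first site was not reproducible. It was found in WT library 1, with fold 8.36 from 22 tags, and not in WT library 2. The WT peak at the second site was reproducible.

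At DUSP10, 1 site likewise had a peak in both pooled lists. DUSP10 (chr1:221701424-221742089, minus strand) encodes a phosphatase that prefers JNK and p38. It had 1 pooled KQ peak, not reproducible, and 5 pooled WT peaks, 1 of them reproducible. Both groups had a peak 39.2 kb upstream, with summits 44 bases apart. The KQ peak (chr1:221781198-221781391) had fold 3.92 and 25 tags over a background of 5.63. The WT peak (chr1:221781162-221781416) had fold 10.9 and 53 tags over 3.95, with folds of 10.7 in WT library 1 and 8.49 in WT library 2. In its own list, the KQ peak stood above 22.5% of peaks by fold and the WT peak above 90.0%. The other 4 WT peaks had folds from 3.26 to 5.04, and 1 of them lay 0.888 kb upstream of the gene and was found in WT library 2 alone.

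The remaining DUSP genes had 0 KQ peaks within 50 kb. DUSP5 (chr10:110497907-110511533), a nuclear phosphatase selective for ERK, had 7 pooled WT peaks, and 2 of the 3 inside the gene were reproducible. The higher of these (chr10:110502978-110503192) had fold 10.8, with 10.4 in WT library 1 and 6.91 in WT library 2. The other (chr10:110500638-110500830) had fold 7.95, with 5.61 in WT library 1 and 7.18 in WT library 2. A peak with fold 9.31 was found in WT library 2 and not in library 1, and lay closer to the neighbouring gene SMC3.

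DUSP6 (chr12:89347235-89352501), the cytoplasmic ERK phosphatase that is a common readout of ERK activity, had 4 pooled WT peaks, 0 of them reproducible. All 4 were found in WT library 1 and not in library 2, with pooled folds of 3.56, 4.00, 4.32 and 6.37. The 3 upstream summits also lay inside the read-through gene POC1B-DUSP6. DUSP4, a nuclear phosphatase of ERK and JNK on chromosome 8, had 2 pooled WT peaks with folds 5.64 and 6.20, and both were found in WT library 1 alone. Neither gene therefore had a WT site within 50 kb that was seen in both libraries.

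Within 50 kb, the Sprouty genes had 0 KQ peaks and 6 pooled WT peaks among them, 1 of which was reproducible. SPRY1 (chr4:123396795-123403760) had that peak, 12.4 kb downstream (chr4:123416019-123416258), with fold 10.5. The single-library folds were 5.81 in WT library 1 and 7.95 in WT library 2, from 15 and 9 tags. SPRY2 (chr13:80335976-80341126) had 2 pooled WT peaks. The one at its start, printed above, had fold 4.75 and was found in neither library alone, and the other, 38.3 kb upstream, had fold 6.47 and was found in WT library 1. SPRY4 (chr5:142310430-142325021) had 3 pooled WT peaks upstream with folds of 3.67, 4.46 and 5.03, all inside the lncRNA gene SPRY4-AS1. Of these, 1 was found in WT library 2 and 0 in library 1.

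SPRED1 (chr15:38252836-38357249, plus strand), the neurofibromin partner lost in Legius syndrome, had the opposite arrangement. It had 1 pooled KQ peak, which was reproducible, and 1 pooled WT peak, which was not. The KQ peak (chr15:38221964-38222253) lay 30.7 kb upstream, outside every gene of the RefSeq table, with fold 7.45. Its folds were 7.46 in KQ library 1, from 16 tags over a background of 1.28, and 6.05 in KQ library 2, from 19 tags over 2.30. The pooled list gave 32 tags over 3.43 (95% interval 21.9 to 45.2). It stood above 92.8% of the pooled KQ list by fold.

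No WT list held a peak on the SPRED1 KQ site. The nearest pooled WT summits were 4.97 kb away on the side of the gene, with fold 3.43, and 19.6 kb away on the other side, with fold 9.61. The second of these was reproducible and lay 50.3 kb from SPRED1, just outside the window. WT library 2 also had a peak 1.54 kb upstream of SPRED1, with fold 4.77 from 5 tags, which the pooled WT list did not hold. Among the pooled peaks inside the 50 kb windows, the summits farthest from their gene lay 39.2 kb away, at DUSP10. Of the 354 reproducible KQ peaks of the whole series, 14 (3.95%) overlapped no pooled WT peak, and 10 of these 14 overlapped no WT list at all. By fold the SPRED1 site ranked 4 among the 14. A peak that is not called in WT does not show that tags were absent there.

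SPRED2 (chr2:65307175-65432599, minus strand), which acts like SPRED1 on RAS, had 0 KQ peaks and 11 pooled WT peaks, 2 of them reproducible. Of the 11, 9 lay inside the gene. The reproducible peaks were at chr2:65396350-65396607, with fold 8.60 (7.63 in WT library 1 and 6.91 in WT library 2), and at chr2:65377777-65377971, with fold 7.42 (6.46 and 8.11). The peak at the start, printed above, had fold 3.73 and was found in WT library 1. Of all protein-coding genes, 178 (0.891%) had as many as 11 pooled WT peaks, although the SPRED2 window is 225.4 kb long and thus holds 4.88 peaks per 100 kb. The spans of the 10 genes ran from 3.10 to 125.4 kb, with a median of 14.1 kb against 24.2 kb for all genes.

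**Figure D4:**
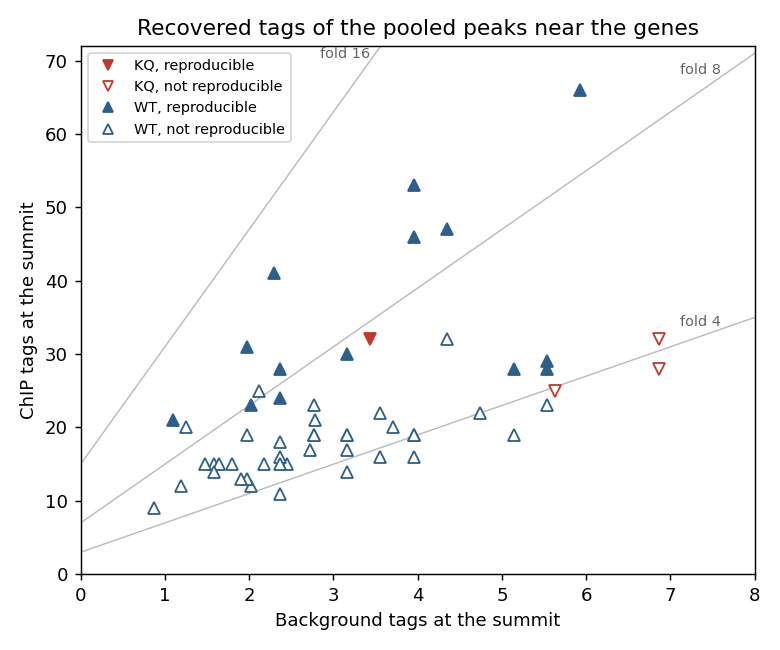
Recovered ChIP tags at the summit (vertical axis) against background tags (horizontal axis) for the pooled peaks near the 10 genes, with KQ in red, WT in blue and filled symbols for reproducible peaks. Grey lines join equal fold values. The 3 KQ peaks at DUSP1 and DUSP10 had backgrounds of 5.63 to 6.86 tags, and the SPRED1 KQ peak had 3.43.

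The pooled peaks near these genes had a lower median fold than the whole pooled list in both groups. The median fold was 4.06 for the 4 KQ peaks, against 4.82 for the whole pooled KQ list, and 5.31 for the 52 WT peaks, against 6.14 for the whole pooled WT list. The 15 reproducible WT peaks had a median fold of 8.60, against 9.03 for all reproducible WT peaks. For KQ the direction was the other way, with fold 7.45 for the 1 reproducible peak against a median of 6.85 for all reproducible KQ peaks. Of the 52 WT peaks, 3 (5.77%) overlapped a KQ peak, against 9.10% of the pooled WT list. Of the 4 KQ peaks, 3 overlapped a WT peak, against 80.4% of the pooled KQ list.

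Beyond 50 kb, further sites had these genes as their nearest gene. Assigned in this way at any distance, 24 pooled KQ peaks and 131 pooled WT peaks belonged to the 10 genes. Reproducible peaks numbered 7 for KQ, at 5 of 10 genes (background 1.65%), and 48 for WT, at 10 of 10 genes (background 23.0%). A gene with distant neighbours is the nearest gene over a longer stretch, and these backgrounds were not matched for that length. The counts and backgrounds are therefore not a like comparison. The KQ sites were 2 at DUSP6, 2 at SPRY2 and 1 each at DUSP4, DUSP10 and SPRED1. All but the SPRED1 site, 6 of 7, overlapped a pooled WT peak. The closest reproducible KQ site to DUSP6 lay 81.4 kb from the gene and the highest (chr12:89264854-89265116) had fold 9.65. Those of SPRY2 lay at least 217.1 kb away, and those of DUSP10 and DUSP4 were 149.8 and 304.1 kb away. For WT, the highest of these peaks was at DUSP6, 129.6 kb away (chr12:89217452-89217862), with fold 19.5.

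Reproducible KQ sites near other genes of the MAPK network numbered 0 or 1 per list, which at these list sizes is near the background of all genes. Of 18 genes of the cascade from RAS to ERK, 0 had a reproducible peak with KQ and 10 (55.6%) with WT, against backgrounds of 2.68% and 37.7% of all protein-coding genes. The highest WT folds there were 14.7 at the scaffold KSR1, 12.5 at the RAS-inactivating protein RASA1 and 11.4 at the kinase BRAF. The WT peak at BRAF overlapped a peak of the pooled KQ list that was not reproducible. Pooled KQ peaks were present near 7 of the 18, against 16.4% of all genes.

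Of 14 genes of the JNK and p38 branch, 0 had a reproducible peak with KQ (background 2.68%) and 7 (50%) with WT (background 37.7%). Pooled KQ peaks were present near 7 of the 14, and pooled KQ peaks of the next 2 lists near 2 of 12 and 1 of 7, against the same 16.4% of all genes. The highest WT folds were 14.2 at MAP3K5, a stress-activated kinase, and 13.8 at a peak inside MAPK13 that also lies within 50 kb of MAPK14, both p38 kinases. Of 12 genes read as outputs of ERK, 1 (8.33%) had a reproducible peak with KQ, PHLDA1 with fold 5.54, and 4 (33.3%) with WT, against the same backgrounds of 2.68% and 37.7%. The WT peaks were led by PHLDA1 with fold 12.9, EGR2 with 10.9 and ETV4 with 8.74. The PHLDA1 peaks of both groups overlapped, 47.3 kb from the gene. Of 7 further phosphatase, Sprouty and SPRED genes, 0 had a reproducible peak with KQ and 4 (57.1%) with WT, against those same backgrounds, led by DUSP8 with fold 11.7, DUSP2 with 8.76 and DUSP16 with 8.23. When a peak had to be found in 1 library of its group in place of both, the RAS to ERK cascade had 1 to 3 genes with KQ and 13 to 14 with WT, depending on the library. The backgrounds for that rule are 7.01% (library 1) and 5.79% (library 2) with KQ and 54.8% and 48.6% with WT. The JNK and p38 branch then had 1 to 3 with KQ and 9 to 11 with WT, and the ERK outputs had 1 with KQ and 5 to 9 with WT.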

How the data were processed

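ChIP-seq peak lists of 4 libraries, 2 KQ and 2 WT, and 1 pooled list per group were used; groups came from the sample titles. Reads were mapped to hg38 with Bowtie2 (version 2) and peaks called with MACS2, per the submitters' processing notes. The caller's settings, and whether input entered the call, are not stated there. The deposited values are a fold enrichment (a ratio) for every peak and −log10 of its p-value and q-value, computed by the authors; the q-value column is used here as a score deposited for ranking. The authors pooled replicates for the pooled lists, per the file names. Fold and q are relative to each list's own background.

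Peaks on chromosomes 1 to 22 and X were compared by overlaps of at least 1 bp with Python 3.11.15 (pandas 2.3.3, numpy 2.4.6, scipy 1.17.1). Gene spans came from RefSeq (GRCh38.p14). Tags were recovered as whole numbers from fold = (tags + 1)/(background + 1) and the Poisson p, to within 0.01 of −log10 p, in 100% of peaks. Total reads per library are unknown. Poisson intervals (95%) cover counting error only. These steps were tested on simulated data. Separate cultures for the 2 libraries of a group are not mentioned in the labels, so their spread may be technical. With 2 libraries per group an exact permutation test cannot go below p = 0.33, and none was run.

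The 10 genes and the lists were chosen with earlier results of these data known. All 10 were named, with the genes of each list that had a reproducible KQ peak and the 3 with the highest reproducible WT fold. Alternatives varied the window, the q threshold, the overlap, the list length, the gene assignment and the library. Promoter sequences came from the RefSeq promoter table (GRCh38.p14), and DNA outside its windows was not used here.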

Additional observations from a re-analysis of the deposited data

How the results depend on the processing

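The 50 kb window set most counts. With a 5 kb window, genes with a reproducible peak numbered 0 for KQ and 3 for WT, pooled peaks 1 and 25, and overlapping sites 1 in each list. With 100 kb these were 2 and 8 genes, 10 and 78 pooled peaks and 8 overlapping sites in each list. With the nearest gene at any distance they were 5 and 10 genes, 24 and 131 peaks and 21 overlapping sites in each list. With the WT list shortened to the KQ length, 2 genes had a reproducible WT peak and 5 WT peaks were left near the genes. In the 5 kb window 0 ERK output genes had a reproducible KQ peak and 6 RAS to ERK genes a reproducible WT peak. In the shortened WT list the counts were 1 for ERK outputs, 4 for the JNK and p38 branch, 5 for RAS to ERK and 0 for the other phosphatase, Sprouty and SPRED genes. The share of all protein-coding genes is not given for the 5 kb window, the 100 kb window or the shortened list. Whether the counts at those settings differ from those of other genes was not tested. A stricter q (−log10 q of 2 or 5) and 50% coverage left all counts near the 10 genes within 1.5 times.

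With 1 library left out, genes with a reproducible peak numbered 1 for KQ and 6 to 8 for WT. The share of all protein-coding genes under that rule was 5.79% to 7.01% for KQ and 48.6% to 54.8% for WT. With the list of 1 library in place of the pooled one, peaks near the genes numbered 1 for KQ and 29 to 33 for WT, with 0 overlapping sites in either direction. The list counts without a library were 1 for KQ and 5 to 9 for WT among ERK outputs, 1 to 3 and 9 to 11 in the JNK and p38 branch, 1 to 3 and 13 to 14 in the RAS to ERK cascade, and 0 and 4 among the other phosphatase, Sprouty and SPRED genes. Of the 22 highest folds recomputed in other windows, 12 were the same. The cause of these shifts was not tested beyond what each change of window, list or library itself sets. No paired analysis was possible because the counts and folds are given with no test to which a replicate block could be added.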
